A study of Mus musculus with 18 samples.

Results

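The immunoglobulin heavy chain variable genes (Ighv genes) encode the variable segment of the antibody heavy chain. They were taken as all genes of the LSK table whose symbol starts with Ighv and whose GENCODE M21 gene type is IG_V_gene, which gave 109 of the 19780 listed genes. The members were thus chosen by symbol and gene type and by being listed in the table of LSK values, and they were proposed for description because earlier results had shown a high immunoglobulin content of these libraries. Shares of reads, evenness and dominant genes are therefore given as a description, with no test. The annotation holds 113 such genes, all on the minus strand of chromosome 12, and Ighv16-1, Ighv1-16, Ighv8-9 and Ighv8-13 were not listed. The table of common myeloid progenitors (CMP) listed 69 of them among 18428 genes.

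LSK are Lin-Sca-1+c-Kit+ cells, the bone marrow compartment with stem and early progenitor cells. RNA was sequenced from LSK of female NZBW/F1 mice, a cross of NZB with NZW that develops spontaneous lupus, and of female C57BL/6 mice, with 3 libraries per group. F1-P (prediseased) and B6-Y (young) mice were 12 weeks old, F1-L (lupus, with proteinuria) and B6-O (old) mice were 28 to 36 weeks old, and CMP were profiled in 3 F1-P and 3 F1-L libraries. As stated, the sort removed cells with CD11b, Gr-1, Ter119, B220 or CD16/32 on their surface and kept those with Sca-1 and c-Kit. The gate stated for CMP also required CD34, and whether CMP were in fact sorted for Sca-1 was not resolved. F1-L and F1-P differed both in disease and in age, and the strains differed in their whole genetic background. For the CMP comparison the study states a number per replicate without saying of what, which can be read as pooled mice. For LSK it states only a number of replicates. Whether an LSK library came from a single mouse is not given in the sources used here, so the p-values measure the spread between libraries, which may be technical.

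Each B cell joins 1 of many V segments to a D and a J segment, so its RNA carries the V gene that it joined. A V gene alone does not identify a clone. Rearranged genes are transcribed at a modest level in B cells and at a very high level in plasma cells, the antibody secreting end stage of the B lineage. Unrearranged V segments give only weak germline transcripts. Ighv11 genes are known from antibodies to phosphatidylcholine made by innate-like B cells, and Ighv7-1 from antibodies to phosphorylcholine.

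Sequences are shown for 6 members on which the account turns, as the last 300 bases of the coding part of the GENCODE M21 transcripts (GRCm38, chromosome 12, minus strand, 5′ to 3′). Capitals mark letters that differ from a named relative. Ighv11-2 (chr12:114048241-114048812) and Ighv11-1 (chr12:113981879-113982341), the leading genes of the C57BL/6 and of 1 F1-L library, differed at 4 of 353 positions (98.9% identity). Ighv7-1 (chr12:113896408-113896946), which fell in F1-L, is compared with Ighv7-3 (88.7% identity). Ighv5-16 (chr12:113838526-113839010), abundant in NZBW/F1, is compared with Ighv5-12 (85.8%), Ighv2-6 (chr12:113716670-113717103), with the largest rise by strain at 12 weeks, with Ighv2-6-8 (94.9%), and Ighv9-3 (chr12:114140692-114141122), nearly without reads in NZBW/F1, with Ighv9-2 (94.3%).
Ighv11-2: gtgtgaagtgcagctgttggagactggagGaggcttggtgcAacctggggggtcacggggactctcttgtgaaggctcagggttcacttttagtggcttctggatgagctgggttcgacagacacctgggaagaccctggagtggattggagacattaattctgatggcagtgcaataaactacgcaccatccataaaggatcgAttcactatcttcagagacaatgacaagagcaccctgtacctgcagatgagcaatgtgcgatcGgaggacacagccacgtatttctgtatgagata
Ighv11-1: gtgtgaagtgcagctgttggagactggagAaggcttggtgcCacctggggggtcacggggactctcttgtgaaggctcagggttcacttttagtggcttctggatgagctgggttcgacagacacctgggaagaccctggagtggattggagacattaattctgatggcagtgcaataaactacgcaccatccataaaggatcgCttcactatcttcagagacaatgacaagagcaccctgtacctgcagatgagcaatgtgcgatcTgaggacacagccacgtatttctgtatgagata
Ighv7-1: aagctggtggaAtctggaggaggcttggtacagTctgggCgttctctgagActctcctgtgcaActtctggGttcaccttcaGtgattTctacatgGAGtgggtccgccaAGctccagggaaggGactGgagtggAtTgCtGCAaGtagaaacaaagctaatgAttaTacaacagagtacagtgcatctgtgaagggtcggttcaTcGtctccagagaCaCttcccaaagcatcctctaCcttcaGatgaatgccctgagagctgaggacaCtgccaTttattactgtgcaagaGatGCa
Ighv5-16: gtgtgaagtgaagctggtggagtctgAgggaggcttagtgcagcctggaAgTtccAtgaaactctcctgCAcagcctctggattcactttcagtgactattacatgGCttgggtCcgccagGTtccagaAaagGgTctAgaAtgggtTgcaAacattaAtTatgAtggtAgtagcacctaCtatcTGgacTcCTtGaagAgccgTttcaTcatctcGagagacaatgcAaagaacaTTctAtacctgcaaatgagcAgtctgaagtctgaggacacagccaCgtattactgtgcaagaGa
Ighv2-6: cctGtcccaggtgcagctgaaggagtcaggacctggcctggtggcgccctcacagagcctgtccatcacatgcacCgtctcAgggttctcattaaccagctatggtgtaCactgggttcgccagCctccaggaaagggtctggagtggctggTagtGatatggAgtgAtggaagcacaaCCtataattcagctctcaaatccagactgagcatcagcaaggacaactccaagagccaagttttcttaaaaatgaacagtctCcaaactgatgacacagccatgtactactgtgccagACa
Ighv9-3: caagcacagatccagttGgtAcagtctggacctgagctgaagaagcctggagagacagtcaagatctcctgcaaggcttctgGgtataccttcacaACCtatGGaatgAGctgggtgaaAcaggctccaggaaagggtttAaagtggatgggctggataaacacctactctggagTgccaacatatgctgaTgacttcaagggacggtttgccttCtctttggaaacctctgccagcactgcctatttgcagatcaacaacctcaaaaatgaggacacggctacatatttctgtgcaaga

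Reads were counted over the exons of a gene, which had 347 to 480 bases in the 109 members (median 353), with 461 in Ighv11-2 and 353 in Ighv11-1. Shares of reads below are not per length unless stated. The median identity of a member to its nearest relative of the family was 94.9%. In 42 members all stretches of 75 bases of the transcript occurred in no other Ighv transcript, pseudogenes included, and in 4 members fewer than 50% did so. Reads were counted against the C57BL/6 reference, and the heavy chain locus differs between inbred strains. A read of an NZB or NZW segment can thus be counted on its closest C57BL/6 relative or be lost, and the value of a single gene in NZBW/F1 is uncertain for that reason.

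Ighv reads made up a far larger part of NZBW/F1 than of C57BL/6 LSK libraries. The F1-P libraries held 424446, 733484 and 747344 Ighv reads, or 1.64%, 3.09% and 2.74% of all reads (2.49% ± 0.753, SD, n = 3). The F1-L libraries held 322256, 385451 and 438005 Ighv reads, or 1.28%, 1.47% and 1.76% (1.503% ± 0.243, SD, n = 3). In B6-Y the share was 0.0855%, 0.306% and 0.244% (0.212% ± 0.114, SD, n = 3), from 22955 to 78704 reads. In B6-O it was 0.0493%, 0.0295% and 0.293% (0.124% ± 0.147, SD, n = 3), from 7792 to 83536 reads.

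Every NZBW/F1 library lay above every C57BL/6 library, while F1-L and F1-P overlapped, as did B6-O and B6-Y. The mean share was 11.8 times higher in F1-P than in B6-Y and 12.1 times higher in F1-L than in B6-O. B6-O replicate 3 stood apart from the other B6-O libraries, and without it the mean of B6-O was 0.0394% and the ratio of F1-L to B6-O 38.2. In bulk RNA, fewer cells with these transcripts and less RNA per cell cannot be told apart.

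The total per LSK library was 23772252 to 28493747 reads, so depth differed little beside these shares. Plasma cell markers moved with the Ighv reads. All 10 genes of the list (Sdc1, Xbp1, Prdm1, Irf4, Jchain, Mzb1, Tnfrsf17, Slamf7, Derl3 and Txndc5) were listed, and their summed CPM was 16014 to 41860 in F1-P, 10565 to 14698 in F1-L, 937 to 2286 in B6-Y and 373 to 2846 in B6-O. CPM here are read counts relative to a library size that the authors had scaled. Jchain, which joins antibody units, had a mean CPM of 25506 in F1-P, 9067 in F1-L, 1172 in B6-Y and 820 in B6-O. The 10 B lineage genes reported (among them Ms4a1, Pax5 and Rag1) summed to 624 to 1992 in F1-P and 365 to 447 in F1-L. The sums were 1092 to 1494 in B6-Y and 680 to 995 in B6-O, an order unlike that of the Ighv reads. Dntt held most of these sums, with a mean CPM of 710 in F1-P, 213 in F1-L, 948 in B6-Y and 721 in B6-O. Singly, the group means of Cd79a, Cd79b and Ms4a1 did follow the order of the Ighv reads, and those of the other genes did not. For Ms4a1 the means were 22.5 in F1-P, 13.7 in F1-L, 8.045 in B6-Y and 4.04 in B6-O.

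The T cell genes Cd3e, Cd3d and Cd3g, all at a low level, also differed by strain, with a summed CPM of 36.3 to 49.5 in F1-P and 19.5 to 63.3 in F1-L against 2.603 to 12.3 in B6-Y and 3.30 to 13.6 in B6-O. The 10 stem and progenitor genes were all present and summed to 1653 to 2926 over the 12 libraries, but single genes moved in opposite ways. Ly6a, which encodes Sca-1, moved with the Ighv reads, at a CPM of 362 to 879 in F1-P and 293 to 451 in F1-L against 37.0 to 89.3 in B6-Y and 35.5 to 113 in B6-O. Cd34 was lower in NZBW/F1, at 169 to 291 in F1-P and 214 to 295 in F1-L against 462 to 751 and 567 to 719 in B6-Y and B6-O, while Kit, which encodes c-Kit, overlapped between the strains (257 to 442 against 296 to 657). The part of cells of these other types in the Ighv results was not tested.

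Across the 12 LSK libraries, the genes outside the members whose log2(CPM + 1) followed the summed Ighv level most closely were Ighm, the constant region of IgM (r = 0.998), Jchain (r = 0.996) and Ly6c2, a surface protein gene also expressed in plasma cells (r = 0.994), of 11244 genes with a mean CPM of at least 5. These correlations describe libraries that fall into a high and a low strain. The ratio of Ighv reads to reads on heavy chain constant genes varied far less than the Ighv share itself. It was 15.5 to 16.5 Ighv reads per 100 constant region reads in F1-P, 12.5 to 14.9 in F1-L, 17.1 to 20.9 in B6-Y and 12.6 to 19.0 in B6-O, so F1-L lay below F1-P and both lay below B6-Y.

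More Ighv genes were seen in NZBW/F1 libraries. At least 10 reads fell on 101, 101 and 101 members in F1-P and on 97, 96 and 94 in F1-L. The numbers were 76, 91 and 90 in B6-Y and 73, 63 and 92 in B6-O, the lowest in the library with the fewest Ighv reads. The number of genes follows the number of Ighv reads. After rarefaction to 7792 Ighv reads, the number in the smallest library, the expected number of members with a read was 89.5 to 90.5 in F1-P (mean 90.1), 87.0 to 88.4 in F1-L (87.8), 93.1 to 94.4 in B6-Y (93.9) and 86.0 to 94.4 in B6-O (90.8). At an equal number of Ighv reads, B6-Y thus lay above all NZBW/F1 libraries and B6-O overlapped them. In all, 45 members had at least 10 reads in every LSK library.

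**Figure D1:**
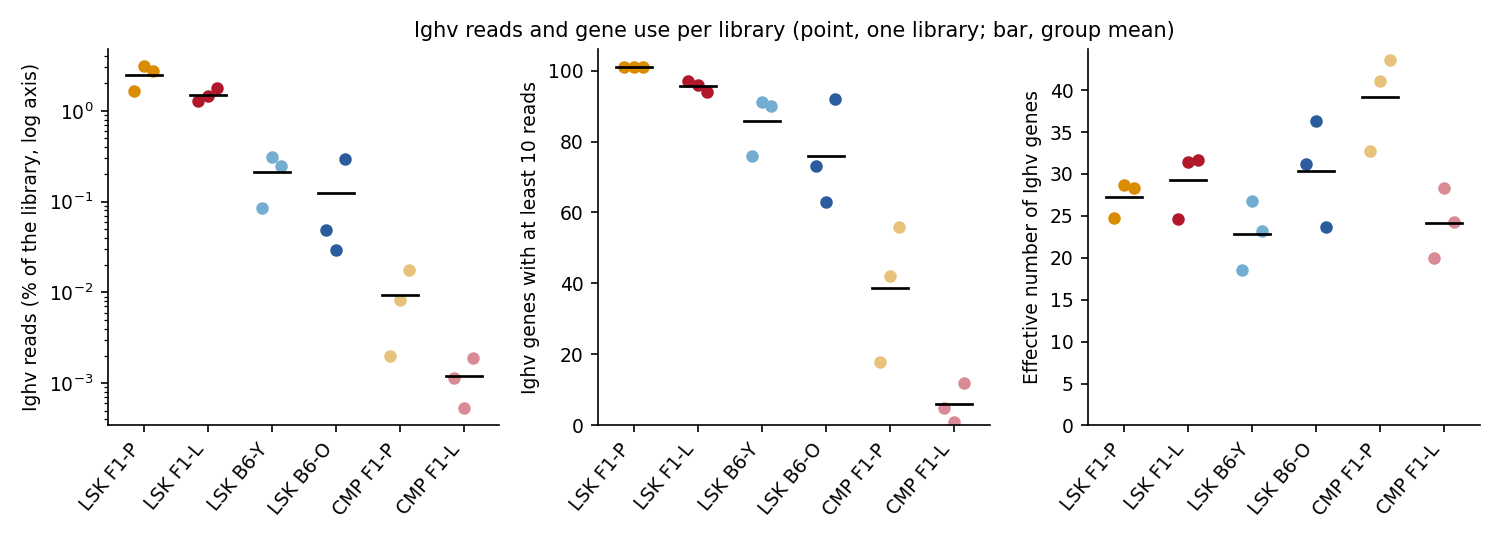
Each point is 1 library and each bar the mean of the 3 libraries of a group; the panels give the Ighv reads as a percentage of the library on a log axis, the number of Ighv genes with at least 10 reads, and the effective number of Ighv genes. The 6 NZBW/F1 LSK libraries, at 1.28% to 3.09%, lie above all 6 C57BL/6 ones, at 0.0295% to 0.306%, and CMP lie lowest, while the effective numbers overlap between the LSK groups.

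Evenness overlapped between the LSK groups. The effective number of genes, the exponential of the Shannon entropy, is the number of equally used genes that would give the same diversity. It was 24.8, 28.7 and 28.4 in F1-P (27.3 ± 2.18, SD, n = 3), 24.7, 31.5 and 31.6 in F1-L (29.3 ± 3.96), 18.6, 26.8 and 23.2 in B6-Y (22.8 ± 4.10) and 31.2, 36.3 and 23.7 in B6-O (30.4 ± 6.35). The highest value belonged to the B6-O library with the fewest Ighv reads. The 10 most used genes held 62.7% to 67.1% of the Ighv reads in F1-P, 61.9% to 70.2% in F1-L, 63.1% to 75.3% in B6-Y and 49.9% to 66.5% in B6-O. In single libraries 50% of the Ighv reads lay on 5 to 6 genes in F1-P, 5 to 7 in F1-L, 3 to 6 in B6-Y and 5 to 11 in B6-O.

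The strains differed in which genes dominated. Ighv11-2 was the leading gene in all 6 C57BL/6 libraries, with 28.01%, 19.5% and 33.8% of the Ighv reads in B6-Y and 24.9%, 17.8% and 31.7% in B6-O. Per base of exon it led them too, with 23.6%, 16.0% and 29.05% in B6-Y and 20.7%, 14.6% and 26.8% in B6-O. In NZBW/F1 it held 0.163% to 0.648% in F1-P and 0.708% to 0.843% in F1-L. Its near copy Ighv11-1 held 2.08%, 4.84% and 8.89% in F1-P and 10.9%, 12.3% and 12.4% in F1-L, against 0.0673% to 5.52% in B6-Y and 0% to 1.41% in B6-O. F1-L lay above F1-P in each library for this share of Ighv11-1. The CPM of Ighv11-1 overlapped between them, at 364 to 3230 in F1-P and 1411 to 2449 in F1-L.

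The reads of the pair stood in a nearly fixed ratio in NZBW/F1. There were 7.85, 7.08 and 7.28 Ighv11-2 reads per 100 Ighv11-1 reads (not per length) in the F1-P libraries and 6.48, 6.77 and 6.78 in F1-L, although the Ighv11-1 reads ranged from 8824 to 66475. In C57BL/6 the ratio varied from 353 to 50247 per 100, and B6-O replicate 2 had 1389 Ighv11-2 reads and 0 Ighv11-1 reads, which allows a share of up to 0.0385% of its Ighv reads (3 reads, counting error only). The sequences above differ at 4 positions, so many reads of 75 bases match both genes: 65.6% of such stretches of Ighv11-1 and 75.2% of those of Ighv11-2 were unique to it among the Ighv transcripts. The share of reads of one gene that was counted on the other was not tested.

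**Figure D2:**
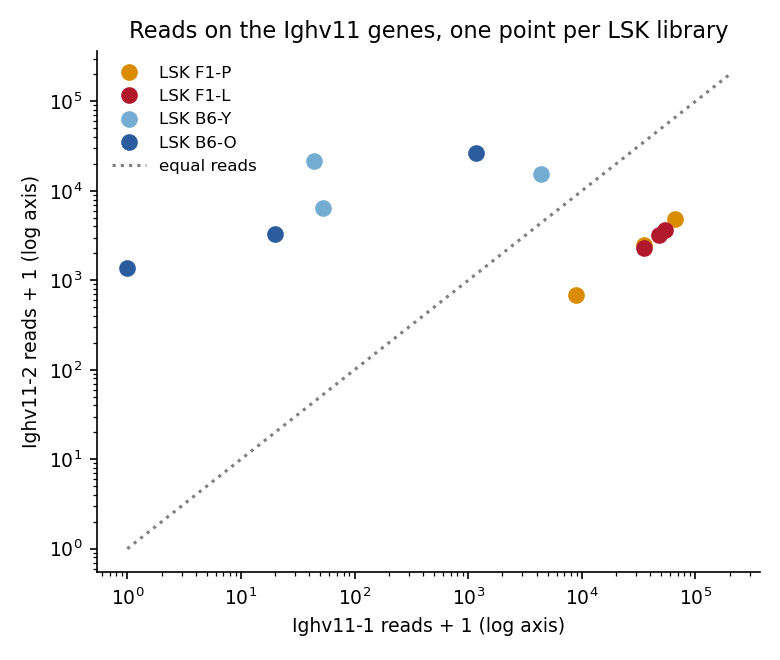
Each point is 1 LSK library; the axes give the reads on Ighv11-1 and Ighv11-2, each plus 1, on log axes, and the dotted line marks equal reads. All 6 NZBW/F1 libraries lie below the line, at 6.48 to 7.85 Ighv11-2 reads per 100 Ighv11-1 reads, and all 6 C57BL/6 libraries lie above it.

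In F1-P, Ighv7-1 led in replicates 1 and 3 with 24.2% and 15.3% of the Ighv reads and held 13.7% in replicate 2, which was led by Ighv5-16 with 18.7%. In F1-L a different gene led each library, Ighv5-9 with 16.3%, Ighv2-9 with 13.4% and Ighv11-1 with 12.4%. Ighv5-9 and Ighv2-9 were each high in a single F1-L library, since Ighv5-9 held 1.96% and 1.11% and Ighv2-9 2.11% and 2.11% in the others. Ighv1-78 varied in the same way, with 0.824%, 7.32% and 11.3% in F1-L. Per base of exon the same gene led each of the 6 NZBW/F1 libraries. The share of the leading gene was 19.4% ± 4.47 (SD, n = 3) in F1-P, 14.1% ± 1.98 in F1-L, 27.1% ± 7.195 in B6-Y and 24.8% ± 6.92 in B6-O.

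Below the leading gene, the C57BL/6 groups shared Ighv6-3, with 4.51% to 13.5% in B6-Y and 1.48% to 4.48% in B6-O, while Ighv1-15 held 6.79% to 11.9% in B6-O and 1.48% to 5.56% in B6-Y. Ighv8-8, at 9.34%, and Ighv7-1, at 16.8%, were highest in B6-Y replicate 1 among the C57BL/6 libraries. Ighv1-76 reached 5.82% in B6-O replicate 3 and 0.494% at most in B6-Y. Ighv1-55 held 2.05% to 4.81% over the 6 C57BL/6 libraries and 0.129% to 0.633% over the 6 NZBW/F1 ones, with no overlap.

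**Figure D3:**
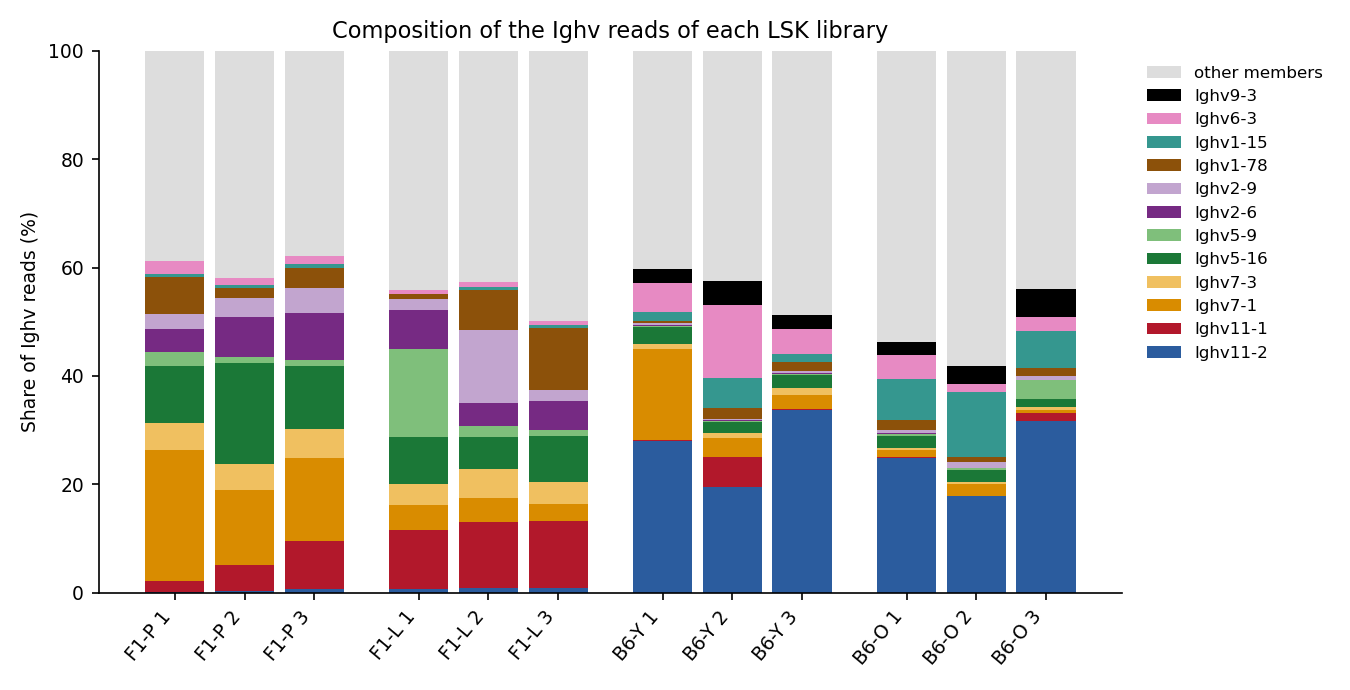
Each stacked bar is 1 LSK library and its parts are the percentages of the Ighv reads on 12 members and on all other members together. Ighv11-2 forms the largest part of each C57BL/6 bar, at 17.8% to 33.8%, while Ighv7-1, Ighv5-16, Ighv2-6 and Ighv11-1 together fill much of the NZBW/F1 bars and Ighv9-3 is visible only in C57BL/6.

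By family, the number after Ighv in the symbol, the 9 Ighv2 genes held 16.0% ± 3.95 (SD, n = 3) of the Ighv reads in F1-P and 17.7% ± 6.58 in F1-L, against 1.87% ± 0.366 in B6-Y and 2.29% ± 0.357 in B6-O. The 10 Ighv5 genes held 19.5% ± 4.44 in F1-P and 18.7% ± 9.34 in F1-L, against 8.67% ± 2.59 and 7.77% ± 1.21 in B6-Y and B6-O. The 4 Ighv7 genes held 23.1% ± 5.52 in F1-P, 8.79% ± 1.27 in F1-L, 8.68% ± 7.75 in B6-Y and 1.85% ± 0.694 in B6-O, with 17.6% in 1 B6-Y library. The 4 Ighv9 genes went the other way, with 0.344% ± 0.188 in F1-P and 0.172% ± 0.114 in F1-L against 3.62% ± 0.803 in B6-Y and 3.99% ± 1.58 in B6-O. The 52 Ighv1 genes, the largest family, held 24.1% in F1-P, 27.8% in F1-L, 27.2% in B6-Y and 45.8% in B6-O.

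The locus runs from genes near the D segments, which are joined early in B cell development, to distal genes. Of the annotated genes ordered by position, the third nearest to the D segments (37 members) held 63.9% to 71.5% of the Ighv reads in F1-P, 50.9% to 71.1% in F1-L, 44.9% to 59.2% in B6-Y and 36.3% to 54.1% in B6-O. F1-P thus lay above both C57BL/6 groups in each library and F1-L overlapped all of them. The distal genes (35 members) held 11.7% to 19.3% in F1-P, 9.14% to 25.7% in F1-L, 20.1% to 22.8% in B6-Y and 22.5% to 31.6% in B6-O.

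**Figure D4:**
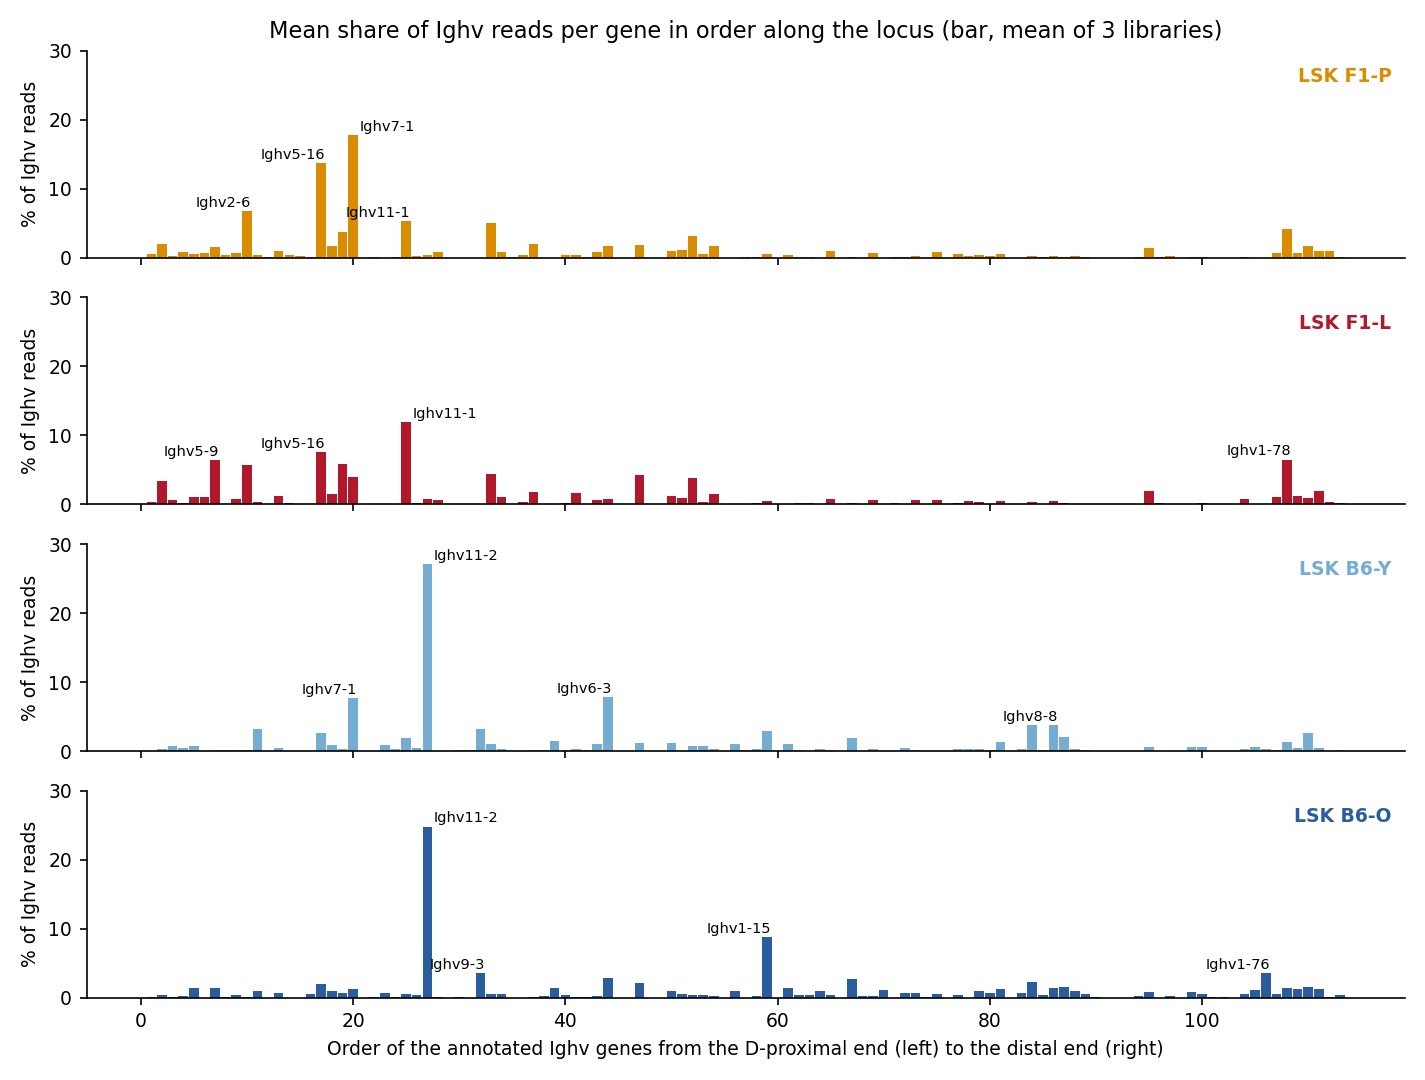
Each panel is 1 LSK group and each bar the mean percentage of Ighv reads (3 libraries) of 1 gene, in order from the D-proximal to the distal end of the locus. Ighv7-1 and Ighv5-16 stand highest in F1-P, with means of 17.7% and 13.7%, Ighv11-1 in F1-L (11.9%) and Ighv11-2 in B6-Y and B6-O (27.1% and 24.8%).

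The strains also stood apart when the whole read distributions were compared. The overlap of a pair of libraries is the sum over members of the smaller of their shares. It was 50.5% to 79.7% for the 30 pairs within a strain (median 64.1%) and 24.6% to 39.6% for the 36 pairs between strains (median 28.7%), without overlap of the ranges. Within NZBW/F1, F1-L shared 55.5% to 68.2% with F1-P, which had 70.8% to 79.7% among its own libraries and F1-L 61.8% to 72.0%. B6-O and B6-Y shared 50.5% to 71.0%, with 59.1% to 66.9% within B6-Y and 61.7% to 68.7% within B6-O. The pairs share libraries and are not independent, and the haplotype of the locus and the use of its genes cannot be told apart here.

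**Figure D5:**
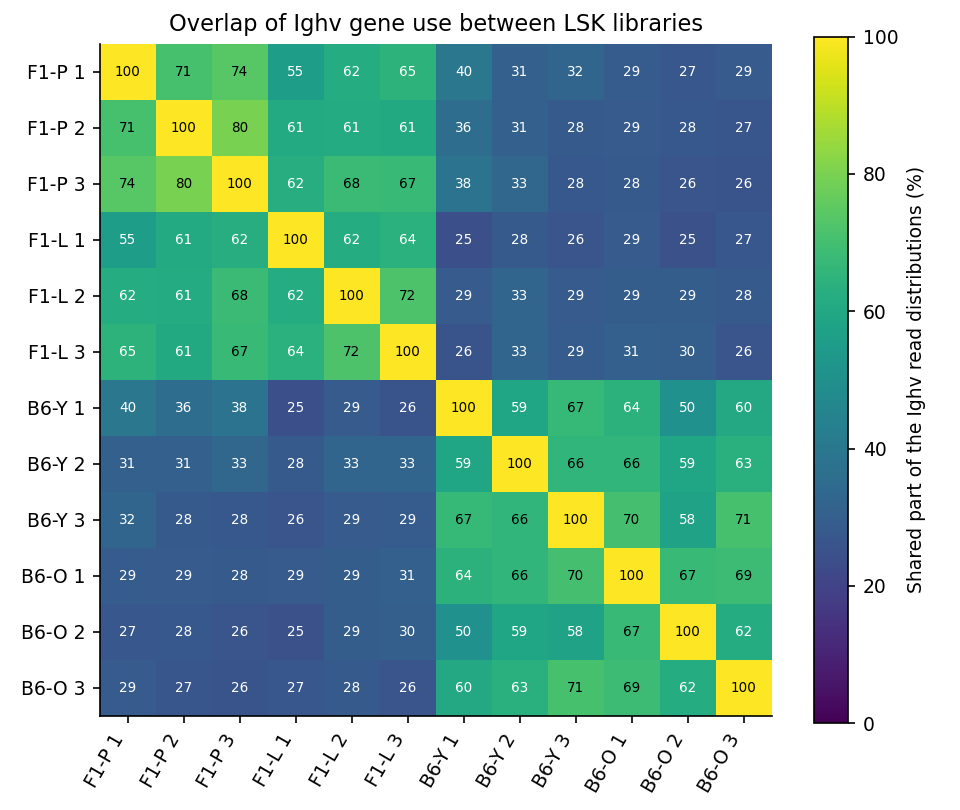
Each cell gives the overlap of the Ighv read distributions of a pair of LSK libraries, in percent, with the diagonal at full overlap. Pairs within a strain range from 50.5% to 79.7% and pairs between strains from 24.6% to 39.6%.

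More than 50% of the tested members were higher in NZBW/F1 at both ages. Differences were tested with limma on log2(CPM + 1) over the genes that reached a CPM of 1 in 3 or more libraries of the fit, with Benjamini-Hochberg adjustment, and were called at an adjusted p of at most 0.05 with a fold change above 1.5. A log2 fold change below is a difference on that scale, on which low genes change too little. Of the 97 members that passed the filter in F1-P against B6-Y, 64 rose and 4 fell, while 10.03% of all tested genes were called higher and 6.18% lower. The median log2 fold change was 3.81 for these members and −0.04 for all tested genes. Of 92 in F1-L against B6-O, 54 rose and 2 fell, against 7.84% and 3.75% of all tested genes, with medians of 3.29 and −0.03. A member could pass the filter through NZBW/F1 alone, so these counts are a description of the members that passed. The count for F1-L against B6-O was 29 of 84 without F1-L replicate 3, where 3.23% of all tested genes were called, and 38 of 92 by edgeR's quasi-likelihood test, which called 10.1% of all tested genes.

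Over all 109 members, 57 had a CPM in every NZBW/F1 library above that of every C57BL/6 library, against 8.78% of all listed genes, and 3 (Ighv4-1, Ighv9-3 and Ighv1-75) lay below, against 5.09%. When the share of Ighv reads was compared in place of the CPM, 18 members lay higher and 18 lower in every NZBW/F1 library, a measure with no counterpart for other genes.

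Ighv2-6 had 17864, 53717 and 65009 reads in F1-P and 23291, 16850 and 23487 in F1-L, against 47, 63 and 144 in B6-Y and 18, 1 and 101 in B6-O. The lowest NZBW/F1 library had more than all C57BL/6 libraries together. In limma the log2 fold change of F1-P against B6-Y was 9.08 (SE 0.577) with an adjusted p of 6.5e-05, and that of F1-L against B6-O 8.83 (SE 0.5002) with an adjusted p of 0.000123.

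Ighv11-1 rose by 8.86 (SE 1.27, adjusted p = 0.00563 in limma) in F1-L against B6-O and by 7.09 (SE 1.56, adjusted p = 0.0182) in F1-P against B6-Y, and its call in F1-L was lost in edgeR's quasi-likelihood test (adjusted p = 0.0868). Ighv3-4 had 8122 to 18935 reads in F1-P and 4282 to 9934 in F1-L against 0 to 124 in C57BL/6, with log2 fold changes of 8.03 and 7.21. Ighv7-3, Ighv1-5 and Ighv2-2 were among the 6 largest rises in F1-L (7.24, 7.56 and 6.94), with Ighv2-2 lost in the quasi-likelihood test (adjusted p = 0.0549). Ighv2-9, Ighv5-9, Ighv1-4 and Ighv2-4 were among those in F1-P (7.55, 7.19, 7.17 and 7.15). Of the 10 genes with the largest rises at either age, 4 belong to the family Ighv2.

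Ighv9-3 had the largest fall. It had 575, 3391 and 1706 reads in B6-Y and 305, 257 and 4193 in B6-O, and 0 to 3 reads in each NZBW/F1 library. By limma it stood at a log2 fold change of −5.62 (SE 0.569) with an adjusted p of 0.000612 in F1-P against B6-Y and of −4.50 (SE 0.977) with an adjusted p of 0.0279 in F1-L against B6-O, the latter call lost (adjusted p = 0.0988 to 0.116) when any F1-L replicate was left out. As its reads were too few in NZBW/F1 for a fold, the ratio depends on the pseudocount.

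Ighv3-6 fell in both comparisons (−3.05, adjusted p = 0.0322 and −2.96, adjusted p = 0.0227 in limma), from 247 to 1196 reads in B6-Y and 102 to 768 in B6-O to 13 to 125 in F1-P and 4 to 14 in F1-L. Ighv1-75 fell by 2.99 (adjusted p = 0.00827) and Ighv4-1 by 2.97 (adjusted p = 0.0236) in F1-P against B6-Y, and Ighv1-75 had 2 to 4 reads in each NZBW/F1 library. The calls of Ighv3-6 and Ighv4-1 were lost when single libraries were left out, the former without any F1-L library or without F1-P replicate 1 or 3 or B6-Y replicate 2 or 3, and the latter without any F1-P library. Ighv9-2, Ighv9-3, Ighv6-4, Ighv1-24, Ighv1-62-1 and Ighv1-75 had fewer than 10 reads in every NZBW/F1 library, and 10 members had so few in every C57BL/6 library.

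Between F1-L and F1-P, 95 members were tested and Ighv7-1 was the only one called, while 0.0279% of all tested genes were called. It had 102565, 100798 and 114402 reads in F1-P and 14485, 17085 and 13562 in F1-L, or 24.2%, 13.7% and 15.3% against 4.49%, 4.43% and 3.10% of the Ighv reads, so the groups did not overlap on either scale. limma gave a log2 fold change of −3.05 (SE 0.252) and an adjusted p of 0.0429, with −2.96 to −3.20 when single libraries were left out, and its adjusted p was above 0.05 without F1-P replicate 2 or any F1-L replicate (0.0758 to 0.225). All its stretches of 75 bases were unique to it among the Ighv transcripts.

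The other members leaned the same way. The log2 fold change was below 0 for 83 of the 95 members and above 0 for 12, with a median of −0.80 against −0.01 over all tested genes. At an unadjusted p below 0.05, 26 members were lower and 0 higher in F1-L, while 12.8% of all tested genes differed in either direction. Of the 109 members, 22 had a lower CPM in every F1-L than in every F1-P library (7.31% of all listed genes) and 0 a higher one (9.69% of all listed genes). DESeq2 and edgeR's likelihood ratio test made 21 calls each among the 95 members, all of them lower in F1-L, and called 1.35% and 1.14% of all tested genes lower. Ighv6-3 had 9846, 9399 and 11427 reads in F1-P and 2276, 3542 and 2977 in F1-L (−2.05 on the log2 scale with SE 0.206 and an adjusted p of 0.0628 in limma), and Ighv5-16 had 45276 to 137315 against 22846 to 36473 (−1.76, adjusted p = 0.271). The summed plasma cell markers given above were lower in F1-L as well, and their part in these differences was not tested.

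Within C57BL/6, B6-O against B6-Y gave 0 calls among 80 members in limma, as among all genes (0%), and 11 members had an unadjusted p below 0.05 (10 lower and 1 higher in B6-O), against 6.62% of all genes. DESeq2 and the likelihood ratio test each called 1 of the 80 members, which was again Ighv7-1, beside 1.48% and 0.821% of all tested genes, so that count was near the background. It had 3862, 2771 and 1714 reads in B6-Y and 167, 168 and 472 in B6-O, so the older and younger libraries did not overlap in C57BL/6 either. In limma its log2 fold change was −3.34 (SE 0.433) with an adjusted p of 0.14, which did not pass, and DESeq2 gave −3.43 with an adjusted p of 2.45e-10. It was called in limma when all 12 LSK libraries entered one fit (adjusted p = 0.00715, with 0.0862% of all tested genes called) and without B6-O replicate 3 (−3.82, adjusted p = 0.00807), where Ighv3-8 and 0.35% of all tested genes were called.

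Whether the change with age differed between the strains was tested by the interaction in all 12 libraries. It gave 0 calls among 99 members in limma (0% of all genes), with 6 members at an unadjusted p below 0.05 against 3.92% of all genes. For Ighv7-1 the interaction was 0.29 on the log2 scale (SE 0.503, adjusted p = 0.977 in limma), so the fall of −3.05 in NZBW/F1 was not shown to differ from that of −3.34 in C57BL/6, in which no mouse was labelled as diseased. DESeq2 called 1 of 99 members, Ighv1-52 (−2.36, adjusted p = 0.0392), and 0.192% of all tested genes.

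CMP held few Ighv reads. The F1-P libraries of CMP had 429, 1883 and 4345 Ighv reads, or 0.00201%, 0.00824% and 0.0175% of all reads, and the F1-L libraries 245, 106 and 380, or 0.00115%, 0.000530% and 0.00190%. The groups did not overlap, and the mean share in LSK was 269 times that in CMP for F1-P and 1260 times for F1-L. Without CMP F1-P replicate 3, the ratio for F1-P was 486. Over the 69 members listed in both tables, a choice made after seeing the data, the ratios were 259.8 and 1224. The tables were normalized separately, but these shares rest on reads alone. The gate stated for CMP included Sca-1, yet Ly6a, its gene, had a mean CPM of 4.30 in CMP of F1-P and 2.83 in CMP of F1-L. In LSK the means were 705 in F1-P and 363 in F1-L. Whether both sorts kept cells with Sca-1 was not tested.

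Markers of other cells were also lower on average in CMP of F1-L. Plasma cell markers summed to a CPM of 234 to 470 in F1-P and 221 to 269.9 in F1-L, where the LSK libraries began at 16014 in F1-P and 10565 in F1-L. The CPM of CMP and LSK were normalized separately. The B lineage genes summed to 215 to 405 and 83.4 to 219.9, and the neutrophil genes (S100a8, S100a9, Ltf, Camp, Ngp and Cxcr2) to 263 to 7233 and 56.98 to 379. The T cell genes gave 0.864 to 6.58 in F1-P and 0.258 to 0.796 in F1-L. The ranges of these sums overlapped for plasma cell, B lineage and neutrophil genes and did not for the T cell genes. Txndc5 and Xbp1 held most of the plasma cell sum, and Dntt most of the B lineage sum. Singly, Jchain (15.41 to 140.2 in F1-P against 3.097 to 14.13 in F1-L), Irf4 (3.89 to 26.7 against 0.4129 to 1.493), Mzb1 and Slamf7 did not overlap. The other plasma cell genes did. Of the B lineage genes, only Cd79b and Dntt overlapped. The part of these cell types in the fall of the Ighv reads was not tested.

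Ighv2-6, Ighv7-3, Ighv5-16 and Ighv3-8 each led at least 1 CMP library. With at least 10 reads on 18, 42 and 56 members in F1-P and on 5, 1 and 12 in F1-L, the order of single genes in CMP F1-L cannot be read at this depth. Ighv11-2, the leading gene of C57BL/6 LSK, was not listed in CMP of NZBW/F1, and Ighv7-1 had 18, 73 and 267 reads in F1-P and 3, 3 and 0 in F1-L. Of the 7 members that passed the filter, limma called 0 between F1-L and F1-P (0.00774% of all tested genes were called), 1 had an unadjusted p below 0.05 (9.80% of all genes), and DESeq2 and the likelihood ratio test each called 1, Ighv1-23, which was lower in F1-L (adjusted p = 0.000273 in DESeq2). These tests called 2.33% and 2.11% of all tested genes lower.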

How the data were processed

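The authors sorted LSK and CMP, prepared TruSeq libraries, aligned reads to mm10 (STAR 2.6 per the labels), counted them per gene with HTSeq and scaled them in edgeR. The deposited values are a signal, CPM of a library size scaled by the authors, in 1 table per cell type. The values were whole multiples of 1 read (100.0% within 0.05 reads), and these reads were recovered and used for shares and count tests. limma on log2(CPM + 1) was kept as the main test, although plain CPM had been assumed when it was chosen.

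GENCODE M21 matched 19770 LSK and 18421 CMP identifiers. Members, marker lists and the rule for named genes were chosen with earlier results of these data known. Named genes led a library, were among the 5 most used in an LSK group (3 in CMP), or were the 6 largest rises or falls called in a comparison. Members described outside that rule were chosen after their values were seen. Families and locus parts follow symbol and position. A further gene of the B lineage list and the list of genes of the sort are not reported here.

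Fits used R 4.3.3, limma 3.58.1, edgeR 4.0.16 and DESeq2 1.42.0, tested on simulated data, and Python 3.11.15, numpy 2.4.6 and pandas 2.3.3. Tested genes reached a CPM of 1 in 3 or more libraries. Alternatives were a pseudocount of 0.5, no filter, the count tests, scaling without immunoglobulin genes, a replicate block, all 12 LSK libraries in one fit and each library left out. Totals were 20001328 to 28493747 reads per library, and intervals and floors cover counting error only.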

Additional observations from a re-analysis of the deposited data

Results flagged for a closer look

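Reads on annotated Ighv pseudogenes, which lie outside the members, were far above the level in C57BL/6. They made up 8.34% (7.04% to 9.08%) of the reads on Ighv genes and pseudogenes in F1-P LSK and 12.6% (12.01% to 13.0%) in F1-L LSK, against 0.317% to 1.09% in B6-Y and 0.185% to 1.38% in B6-O. The ranges of F1-L and F1-P did not overlap. The LSK table listed 26 of the 70 annotated pseudogenes. Ighv1-62 had 11428 to 24996 reads in F1-P and 6386 to 36852 in F1-L against 1 to 21 in C57BL/6, and Ighv1-14 had 8529 to 20750 in F1-P and 5257 to 23064 in F1-L against 0 to 20. Ighv1-86 had 169, 806 and 16718 reads in F1-L and was thus high in a single library. These genes were picked after their values were seen, and what produced the reads was not tested.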

How the results depend on the processing

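The strain comparisons kept their direction under the alternatives run, with 29 to 67 members called in F1-L against B6-O (29 without F1-L replicate 3, 30 without F1-L replicate 2, 33 without B6-O replicate 1, 35 without B6-O replicate 2 and 67 without B6-O replicate 3) and 50 to 69 in F1-P against B6-Y when single libraries were left out, while 3.23% to 16.2% and 6.69% to 16.0% of all tested genes were called. Of the 19 calls of named genes, edgeR's quasi-likelihood test lost 3 and the scaling without immunoglobulin genes 0, and no value reversed. For F1-L against F1-P, 2 members were called with no filter or with all 12 LSK libraries in one fit, 21 by the likelihood ratio test and 21 by DESeq2 (0.0253%, 0.172%, 4.6% and 5.12% of all tested genes). Leaving out single libraries gave 0 (without F1-L replicate 2 or F1-P replicate 2) to 6 (without F1-P replicate 1), and the 1 member called without F1-L replicate 1 or 3 was Ighv3-3 or Ighv3-5 in place of Ighv7-1. For B6-O against B6-Y, the likelihood ratio test, DESeq2 and all 12 libraries in one fit gave 1 each, and single libraries left out gave 0 to 2 (2 without B6-O replicate 3). For the interaction, DESeq2 gave 1, and single libraries left out gave 0 to 1 (Ighv3-3 without F1-L replicate 1). In CMP, the likelihood ratio test and DESeq2 gave 1 each. The cause of these differences was not tested.

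With the replicate number as a block, 0 members were called in F1-L against F1-P, 63 in F1-L against B6-O and 79 in F1-P against B6-Y, beside 0%, 9.60% and 19.4% of all tested genes, and Ighv7-1 was the only named gene to lose its call (adjusted p = 0.205). Same-numbered libraries had correlations of −0.454 to 0.622 between their deviations from the group means. Differently numbered libraries were not compared, so whether the numbers pair the libraries cannot be decided from these values.

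The share of reads rose to 3.56% in F1-P and 1.89% in F1-L when reads on other immunoglobulin genes were left out of the total. At least 1 read fell on 107, 106, 104 and 95.7 members in LSK, in the order F1-P, F1-L, then B6-Y, then B6-O, and on 61.7 and 40 in CMP of F1-P and F1-L (group means). At least 0.1% of the Ighv reads fell on 64, 62.3, 65 and 68 members in LSK in the same order and on 58.7 and 40 in CMP of F1-P and F1-L. Rarefied numbers were 90.1, 87.8, 93.9 and 90.8. The inverse Simpson index gave effective numbers of 13.7, 16.9, 9.73 and 12.8 for LSK and 29.8 and 17.1 in CMP. In CMP of F1-L, 106 to 380 Ighv reads per library limit all these values.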

Other observations

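In CMP, the pseudogenes made up 12.3% to 14.3% of the reads on Ighv genes and pseudogenes in F1-P and 19.1% to 26.0% in F1-L, from 14 listed pseudogenes. Ighv reads per 100 reads on light chain variable genes were 43.7 to 52.5 in F1-P LSK, 40.8 to 44.9 in F1-L, 48.6 to 60.8 in B6-Y and 38.0 to 63.1 in B6-O, so F1-L lay below B6-Y in each library and the other pairs of groups overlapped. In CMP this ratio was 48.9 to 57.4 in F1-P and 41.6 to 46.3 in F1-L, within the range of the LSK libraries. Relative to heavy chain constant reads, CMP had fewer Ighv reads, with 6.91 to 11.6 per 100 in F1-P and 4.66 to 5.51 in F1-L. In LSK, the summed CPM of the neutrophil genes had means of 607 in F1-P, 5489 in F1-L, 1892 in B6-Y and 3919 in B6-O, an order unlike that of the Ighv share. Within B6-O the sums (1501, 741 and 9514 in replicates 1 to 3) ranked as the Ighv shares did. Within F1-L (10518, 4290 and 1660) they ranked in the reverse order. The highest sum and the highest Ighv share fell in the same library in B6-Y (replicate 2, 4796) but not in F1-P.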
